A study of Mus musculus with 20 samples.

Results

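This account follows 9 genes of fat oxidation and its control by peroxisome proliferator-activated receptors (PPARs), out of 23373 genes in the count table. They were taken by symbol as a pathway list, and Ppargc1b was selected on its measured fall after benzo[a]pyrene (B[a]P), so the B[a]P responses of the 9 genes are described without a test. RNA was sequenced from Hepa-1, a mouse hepatoma line that keeps an active aryl hydrocarbon receptor (AHR), the sensor of B[a]P. The study asked what long growth with hexavalent chromium, Cr(VI), does to the messenger RNA of these cells and to their response to B[a]P. There were 20 libraries in 10 groups of 2. Recovered cells, with 20 passages in Cr(VI) and 5 without, Cr(VI)-grown cells and control-grown cells were each taken at passage 25 after 8 hours of B[a]P or of its solvent DMSO. Cr(VI)-grown and control-grown cells were also taken at passage 20 with the same 8-hour treatments. Doses are given as labelled, 5 mM of B[a]P and 0.5 mM of Cr(VI). All groups are of the 1 line, no genotype differs between them, and the labels do not say whether the duplicates came from separate cultures, so p-values measure the spread between these libraries only.

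Fatty acids are activated to acyl-CoA, carried into mitochondria by the carnitine shuttle, and shortened there by a cycle of dehydrogenation, hydration, dehydrogenation and thiolysis. Peroxisomes run a parallel cycle for very long chains. In the liver PPARA, a nuclear receptor that fatty acids activate, pairs with a retinoid X receptor on promoters of these genes, and the coactivators PGC-1 alpha and PGC-1 beta raise their transcription during fasting. Among the 9 genes, Ppara encodes the receptor and Ppargc1b encodes PGC-1 beta. Cpt1a encodes the liver form of the carnitine palmitoyltransferase at which fat entry is limited, and Cpt2 its partner on the inner membrane. Acadm and Acadl encode the medium-chain and long-chain acyl-CoA dehydrogenases, Hadha the alpha subunit of the mitochondrial trifunctional protein, and Acaa2 a mitochondrial thiolase. Ehhadh encodes the bifunctional enzyme of the peroxisomal cycle and is a classical PPARA target of the rodent liver.

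Promoter sequences were matched in RefSeq (build GRCm38.p6) for 7 of the 9 genes. The 250 bases before the start site are shown for the carnitine transferase genes Cpt1a and Cpt2 and for the oxidation enzyme genes Acadm and Ehhadh. Each is written 5′ to 3′ on the gene's own strand. Capitals mark GCGTG, the core to which the AHR dimer binds, and AGGTCA, the half-site of nuclear receptors, on either strand, so that they can also read CACGC or TGACCT. No marked match overlaps another.
Cpt1a (chr19:3323051-3323300, plus strand): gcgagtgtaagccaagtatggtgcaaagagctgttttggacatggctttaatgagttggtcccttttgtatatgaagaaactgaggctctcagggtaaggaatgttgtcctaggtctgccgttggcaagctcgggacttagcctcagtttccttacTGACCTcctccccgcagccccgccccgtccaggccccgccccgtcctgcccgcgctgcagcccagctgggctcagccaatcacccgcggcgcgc
Cpt2 (chr4:107923590-107923839, minus strand): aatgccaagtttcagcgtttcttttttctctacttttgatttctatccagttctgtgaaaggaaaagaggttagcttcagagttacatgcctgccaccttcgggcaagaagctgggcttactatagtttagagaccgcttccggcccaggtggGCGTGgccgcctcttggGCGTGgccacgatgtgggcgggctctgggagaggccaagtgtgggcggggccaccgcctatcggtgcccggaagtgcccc
Acadm (chr3:153944644-153944893, minus strand): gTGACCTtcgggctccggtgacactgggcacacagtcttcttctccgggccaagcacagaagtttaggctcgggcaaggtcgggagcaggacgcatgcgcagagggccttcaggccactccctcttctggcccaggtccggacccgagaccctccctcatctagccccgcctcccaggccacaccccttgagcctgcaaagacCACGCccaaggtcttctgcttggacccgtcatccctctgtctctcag
Ehhadh (chr16:21787835-21788084, minus strand): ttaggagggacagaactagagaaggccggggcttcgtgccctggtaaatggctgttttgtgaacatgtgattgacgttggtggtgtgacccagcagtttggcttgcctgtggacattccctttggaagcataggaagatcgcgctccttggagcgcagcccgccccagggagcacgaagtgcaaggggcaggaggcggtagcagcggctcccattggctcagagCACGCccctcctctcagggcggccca
Cpt2 held 2 copies of GCGTG and Acadm, Ehhadh and Ppara 1 each, while 28.2% of the 32851 RefSeq promoters had at least 1 in this window. AGGTCA was found once in Cpt1a and once in Acadm, and in 14.0% of all promoters. The windows of Ppara, Acadl and Hadha are not shown, and Acadl and Hadha held neither GCGTG nor AGGTCA. A direct repeat of AGGTCA with 1 base between the copies was in none of the 7 windows and in 0.0335% of all promoters. The matches are a description of these letters and not of binding.

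Total counts were 20976045 to 37930720 per library. Of the 9 genes, 8 passed the filter on low counts and Ppara did not. At passage 25 the libraries split by replicate number: the share of counts held by the top 100 genes was 29.6% to 34.3% for replicate 2. It was 15.7% to 26.03% for replicate 1, and 16.7% to 25.4% in the passage 20 libraries. The summed level of 10 hepatocyte markers was 6151 to 8792 CPM (read counts scaled to library size) in replicate 2 of passage 25, 1644 to 4526 CPM in replicate 1 and 2055 to 2715 CPM at passage 20. Albumin and transferrin gave most of that sum, while 5 of the 10 markers (Ttr, Apoa1, Apob, Hnf4a and Serpina1a) averaged under 1 CPM, so the line lacks part of the hepatocyte programme. Among markers of other liver cells, 7 of 8 endothelial, 4 of 8 macrophage, 3 of 8 cholangiocyte and 2 of 8 fibroblast genes averaged under 1 CPM. The remaining markers were expressed, some strongly. The highest means were 994 CPM for the cholangiocyte gene Krt7 and 611 CPM for the fibroblast gene Dcn. They were 50.7 CPM for the macrophage gene Cd14 and 2.44 CPM for the endothelial gene Lyve1. Replicate 2 of the Cr(VI)-grown, DMSO-treated group at passage 20 also differed from its duplicate for several of the 9 genes, and the Cpt1a and Ehhadh differences with Cr(VI) are also given without it.

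The receptor itself was almost silent. Ppara (GeneID 19013, chr15:85734910-85806851) had 0 to 11 counts per library and 62 counts in all, and no count in 3 libraries. By the total counts without scaling, 3 counts there would have been 0.0907 to 0.121 CPM. The level of Ppara was at most 0.404 CPM with the scaled library sizes. Other PPARA targets went both ways. Of 15 on the list 10 passed the filter, with the lipid droplet gene Plin2 at a mean of 328 CPM and the thioesterase gene Acot8 at 35.5 CPM. Fabp1, the liver fatty acid binding protein, and the omega-hydroxylase gene Cyp4a14 had no count in any of the 20 libraries. By the total counts without scaling, that allows up to 0.00502 CPM for each over all libraries. The hormone gene Fgf21 reached at most 2 counts in a library. The receptor Pparg reached at most 8 counts, while the delta receptor Ppard averaged 64.5 CPM. These limits cover counting error only, and Fabp1, Cyp4a14, Fgf21 and Pparg were named after their counts were seen.

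The 6 mitochondrial enzyme genes were well expressed per kilobase of exon, and the peroxisomal Ehhadh was not. Acadl had a median of 70.6 CPM per kb and Acaa2 57.3 CPM per kb over the 20 libraries. Acadm (19.5 CPM per kb), Hadha (17.3), Cpt1a (16.7) and Cpt2 (16.6) followed, and these 4 do not differ beyond their spread, with SDs over libraries of 4.81 to 9.46 CPM per kb. Ppargc1b had a median of 0.82 CPM per kb and Ehhadh 0.439 CPM per kb, and Ppara 0.0173 CPM per kb. Acaa2 varied 7.11-fold between its lowest and highest library, and the SD of its level (73.1 CPM per kb) was close to its mean (100 CPM per kb), so its place beside Acadl holds for the median only. Of the 8 genes tested Acadl had the narrowest range, 2.35-fold. The range of Ppargc1b was 13.2-fold, but it holds the B[a]P response on which that gene was selected, so its width follows in part from the choice.

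The remaining pathway was read from a list of 77 other genes in 7 roles, of which 66 passed the filter. All 12 other genes of mitochondrial oxidation, all 13 of peroxisomal oxidation and all 8 of the carnitine shuttle and its control passed. So did 14 of 15 receptors and cofactors, 6 of 10 genes of uptake and activation and 10 of 15 other PPARA targets. In mean level per kb, the electron transfer flavoprotein subunit Etfb (208 CPM per kb) and the hydroxyacyl-CoA dehydrogenase Hsd17b10 (124.8) led mitochondrial oxidation, and Ech1 (62.7) and the thiolase Acaa1a (45.5) led the peroxisomal genes. Rxrb, a partner of the PPARs (43.8 CPM per kb), and the estrogen-related receptor Esrra (42.4) led the regulators. The acyl-CoA synthetase Acsl5 (74.8) and the transporter Slc27a4 (21.005) led uptake, and Cpt1c (21.3) and the carnitine acetyltransferase Crat (17.3) led the shuttle list. The lipid droplet gene Plin2 (174) and the thioesterase Acot8 (30.9) led the other PPARA targets.

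**Figure D1:**
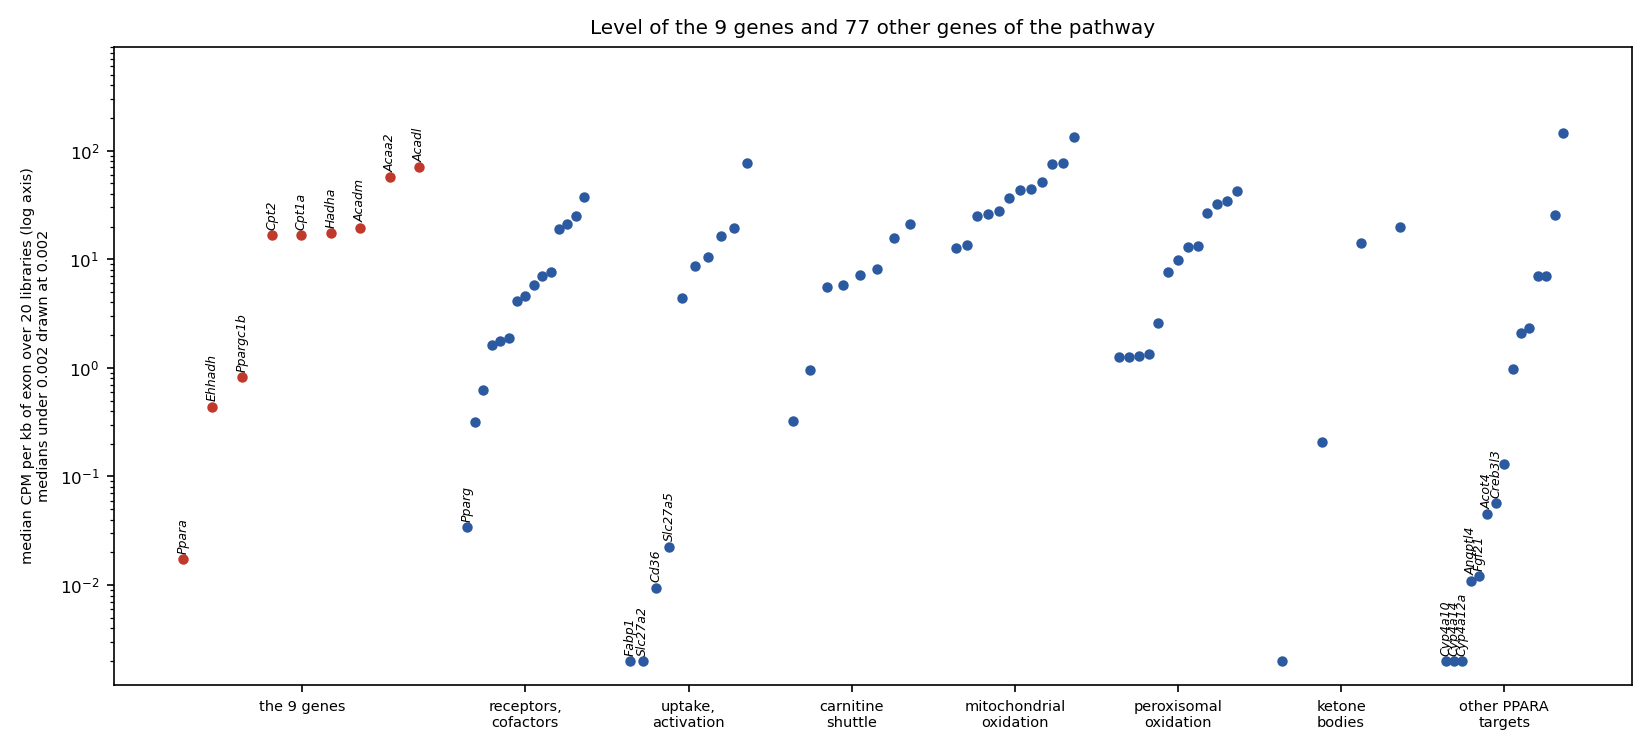
Median level in CPM per kb of exon (log axis) over 20 libraries for the 9 genes (red) and for 77 other pathway genes by role (blue), each point 1 gene, with medians under 0.002 drawn at 0.002. Acadl and Acaa2 stand at 70.6 and 57.3 CPM per kb, Ppara at 0.0173, and Fabp1 and Cyp4a14 at the bottom of the axis, with the names of further low genes beside their points.

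Between passages, Acadm was the clearest mover. In B[a]P-treated control-grown cells it had 35.8 and 27.7 CPM at passage 25, against 74.5 and 76.7 CPM at passage 20. In B[a]P-treated Cr(VI)-grown cells it had 30.1 and 25.5 CPM at passage 25, against 67.1 and 68.9 CPM at passage 20. Both duplicates of passage 25 lay below both of passage 20 in these groups.

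Under DMSO, Acadm had 39.0 and 24.1 CPM at passage 25 and 62.6 and 62.6 CPM at passage 20 in control-grown cells. In Cr(VI)-grown cells under DMSO it had 23.9 and 18.4 CPM at passage 25 and 55.8 and 43.5 CPM at passage 20. The passages did not overlap in 4 of 4 matched groups, as was so, in this direction, for 6.82% of the genes tested. It follows that Acadm was also lower in 8 of 8 pairs of equal replicate number (9.8% of genes). Acadm fell by 1.19 ± 0.18 (SE) on the log2 scale (8 against 8 libraries, edgeR quasi-likelihood test, adjusted p = 0.000974, two-sided), in a comparison that called 19.4% of all genes tested. It fell by 1.12 in control-grown cells (adjusted p = 0.03) and by 1.26 in Cr(VI)-grown cells (adjusted p = 0.0128, same test). Without the replicate 2 libraries of passage 25 it fell by 0.95 (adjusted p = 0.0019).

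Ehhadh was the other gene past the threshold, with few counts behind it (8 to 83 per library). Under DMSO it had 0.712 and 0.457 CPM at passage 25 and 1.54 and 1.83 CPM at passage 20 in control-grown cells. In Cr(VI)-grown cells under DMSO it had 0.73 and 0.609 CPM at passage 25 and 1.35 and 0.622 CPM at passage 20, so the groups overlapped there. It fell by 0.68 ± 0.21 on the log2 scale over both growth histories (edgeR, adjusted p = 0.0386). It was lower in 7 of 8 pairs, and the share of all genes with that count was not taken. The adjusted p of Ehhadh passed 0.05 in only 4 of the 16 fits that each left out 1 library, and the highest was 0.0975 without replicate 2 of the DMSO-treated control-grown cells of passage 25.

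Acaa2 and the genes that vary with it show a difference between replicate numbers within passage 25 rather than a common level. Acaa2 had 46.4 to 157 CPM in the 6 replicate 1 libraries of passage 25 and 266 to 330 CPM in the 6 replicate 2 libraries, against 62.2 to 102 CPM in all 8 libraries of passage 20. Replicate 2 exceeded replicate 1 in 6 of 6 groups of passage 25 for Acaa2 (median log2 difference 2.36), Hadha (1.26), Cpt2 (1.17) and Acadl (0.55). Acadm was lower in replicate 2 in 6 of 6 groups (median -0.53). Over all genes tested, the replicate differences correlated at 0.881 to 0.952 between the groups of passage 25. A like sign in 6 of 6 groups is thus not particular to these genes, and its share over all genes was not counted. In the replicate 2 libraries of passage 25 the hepatocyte markers were also high, but not they alone. Summed cholangiocyte markers had 1328 to 2102 CPM there, against 473 to 1100 CPM in replicate 1, and macrophage markers 104 to 140 against 69.3 to 99.4 CPM. Fibroblast markers overlapped (1287 to 1615 against 736 to 1521 CPM), and endothelial markers were not higher (2.80 to 3.88 against 3.61 to 7.04 CPM). The part of these differences in the results was not tested. Over the 20 libraries the Pearson correlation of Hadha was 0.90 with Acadl, 0.89 with Cpt2 and 0.84 with Acaa2 (log2 of CPM + 0.5), values that share the split of passage 25 and are a description only.

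The passage difference of Acaa2 was 1.30 ± 0.52 (adjusted p = 0.0927, edgeR). With a block for the replicate number in each passage it was 1.08 (adjusted p = 0.000385), and without the replicate 2 libraries of passage 25 it was 0.20. Cpt1a had 0.49 ± 0.17 (adjusted p = 0.0598), and with the block 0.50 (adjusted p = 0.00132). By DESeq2 the adjusted p was 0.0328 for Acaa2 and 0.0143 for Cpt1a, and edgeR with DESeq2 size factors gave 0.0481 for Cpt1a. The block raised the share of all genes called to 63.3%, so a call there is shared by most genes. Cpt2 (0.34), Hadha (0.10) and Acadl (-0.13) did not pass the threshold. With the block at passage 25 only, Cpt2 had 0.24 (adjusted p = 0.0493, edgeR), and without the replicate 2 libraries of passage 25 it had -0.25. Without the replicate 2 libraries of passage 25 Hadha fell by 0.57 (adjusted p = 0.019) and Acadl by 0.47 (adjusted p = 0.008, edgeR). Ppargc1b is given without a test, since the comparison holds the B[a]P libraries on which it was selected. Its log2 differences, passage 25 minus passage 20, were 0.69 to 1.38 in the 4 pairs under B[a]P. Under DMSO they were -0.75 and -0.52 in control-grown cells and -0.10 and 0.77 in Cr(VI)-grown cells. The libraries of each passage carry sample names of their own set, so passage and library set cannot be told apart. Bulk RNA also cannot tell fewer cells of a kind from less RNA per cell.

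Of the other pathway genes, 8 of 66 were higher at passage 25, 1 was lower and 57 did not pass, where 19.4% of all genes were called. Higher were Bdh1, a ketone body dehydrogenase (1.94 ± 0.30), the pantetheinase gene Vnn1 (1.71 ± 0.16), the short-chain dehydrogenase Acads (1.60 ± 0.52), Rxrb (1.56 ± 0.42), and the peroxisomal genes Ech1 (1.26 ± 0.37) and Decr2 (1.20 ± 0.16), with edgeR adjusted p-values of at most 0.0483. The other two were peroxisomal genes. The gene that fell, Acot1 (-0.99 ± 0.29), was named after its value was seen. Bdh1 rests on few reads, with at most 75 counts in a library and a mean of 0.869 CPM. The median log2 fold change of the 66 genes was 0.29, against -0.04 over all genes tested. By role, 4 of 13 peroxisomal, 1 of 12 mitochondrial and 0 of 8 shuttle genes were higher. Vnn1 separated the passages in every group, with 16.2 to 41.1 CPM in the control-grown and Cr(VI)-grown libraries of passage 25 and 5.64 to 11.98 CPM at passage 20. The share of all genes that separated upward in this way was not counted. Acads did not separate the passages in every group. In B[a]P-treated Cr(VI)-grown cells at passage 25 it had 43.5 and 317 CPM, against 45.6 to 94.8 CPM in the Cr(VI)-grown libraries of passage 20.

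**Figure D2:**
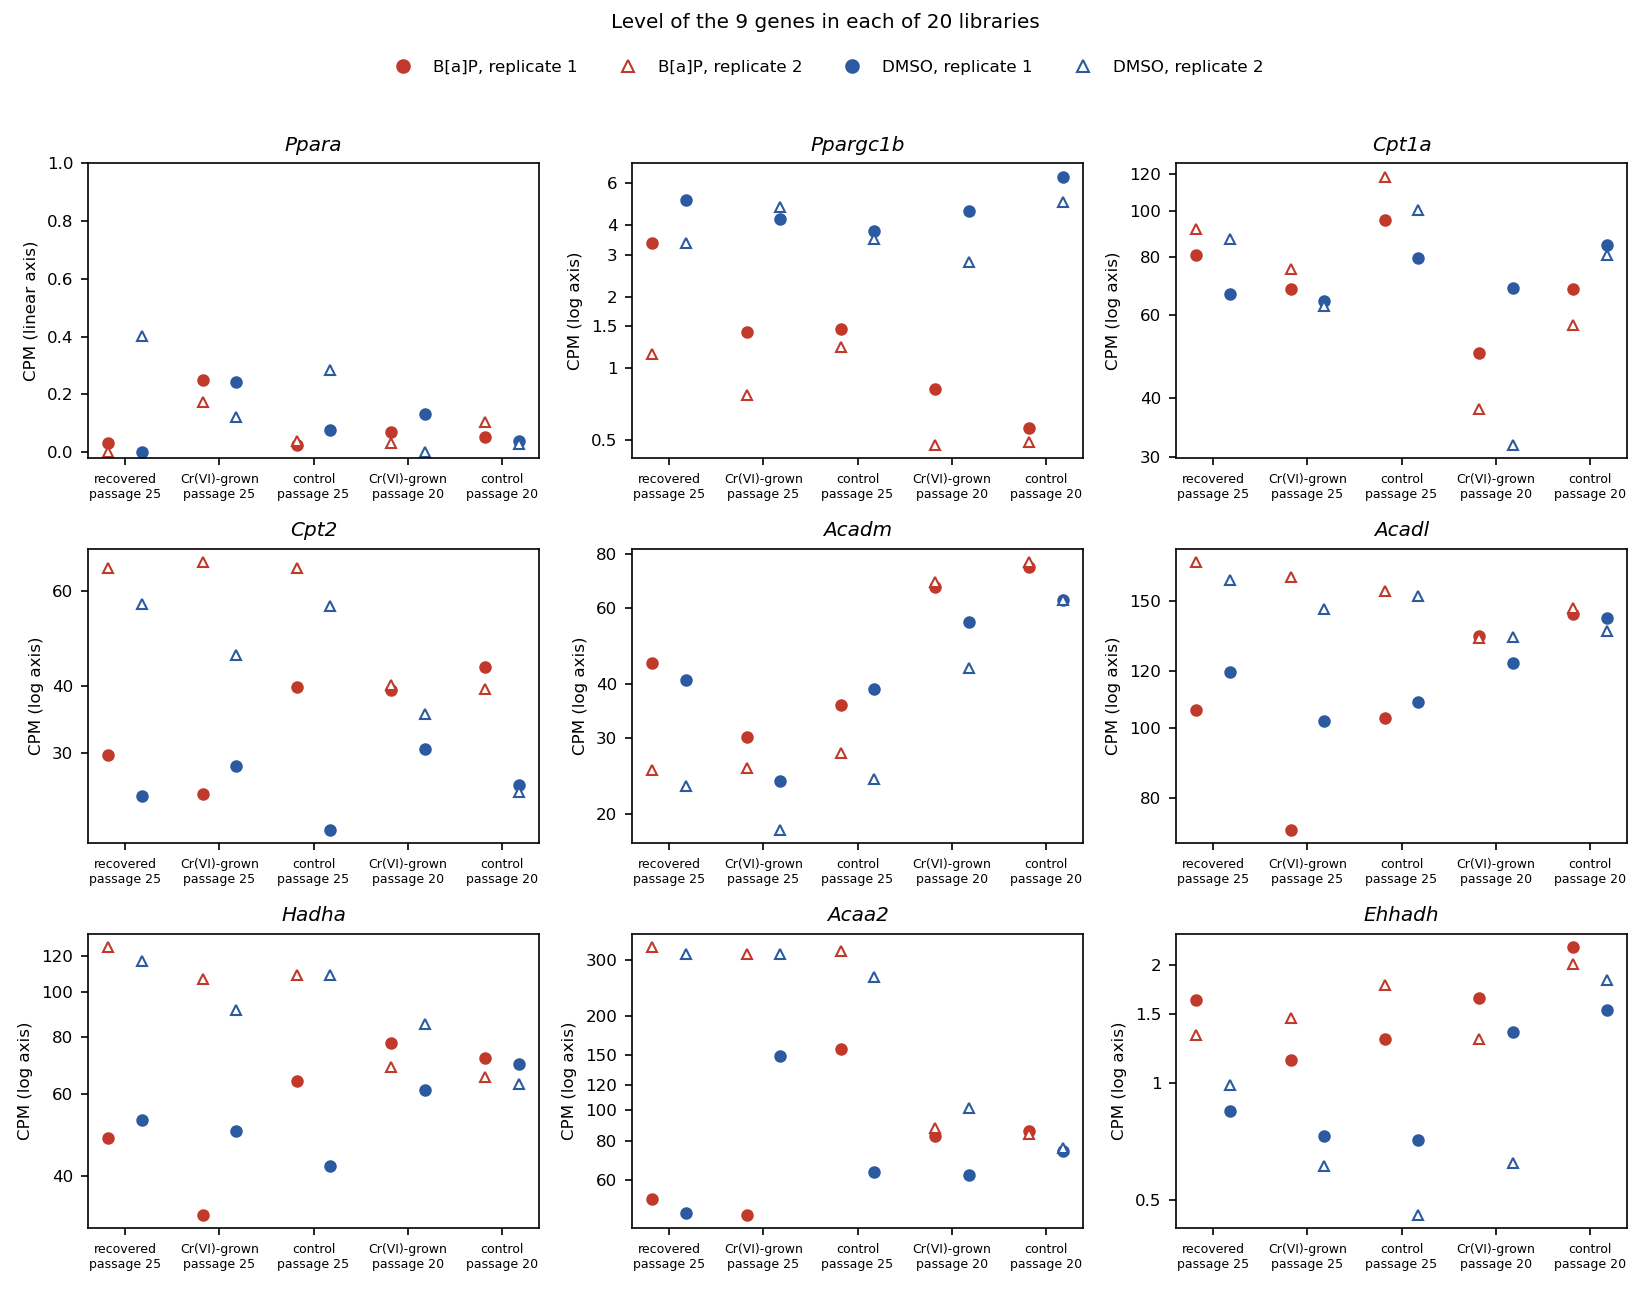
CPM of each of the 9 genes in every library (log axis, linear for Ppara), by growth history and passage, with B[a]P in red left of DMSO in blue, filled circles for replicate 1 and open triangles for replicate 2. Ppargc1b is lower after B[a]P in each pair of groups, Acadm is lower at passage 25, and Acaa2 splits by replicate at passage 25 (46.4 to 157 against 266 to 330 CPM).

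Growth with Cr(VI) went with lower Cpt1a throughout. In DMSO-treated cells of passage 25 Cpt1a (GeneID 12894, chr19:3322326-3385735) had 64.5 and 62.8 CPM in Cr(VI)-grown cells and 79.6 and 100 CPM in control-grown cells. After B[a]P at passage 25 it had 68.1 and 75.5 CPM in Cr(VI)-grown cells, against 95.9 and 118.3 CPM in control-grown cells. The groups do not overlap in either treatment.

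At passage 20 under DMSO, Cpt1a had 68.5 and 31.9 CPM in Cr(VI)-grown cells and 84.9 and 80.7 CPM in control-grown cells. After B[a]P at passage 20 it had 49.8 and 37.9 CPM in Cr(VI)-grown cells and 68.3 and 57.1 CPM in control-grown cells. Cr(VI)-grown cells thus lay below control-grown cells without overlap in 4 of 4 matched groups, which held in this direction for 0.739% of the genes tested. It follows that they were also lower in 8 of 8 pairs (4.0% of genes). The log2 fold change was -0.58 ± 0.17 (8 against 8 libraries), but with an adjusted p of 0.314 in edgeR's quasi-likelihood test it did not pass. No gene of the 14343 did (0.0%), although 1244 had an unadjusted p under 0.05. By DESeq2 163 genes passed.

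With a block for the replicate number in each passage, Cpt1a fell by 0.60 ± 0.11 (adjusted p = 0.0112), in a fit that called 10.6% of all genes. With the block at passage 25 only, where the numbers do pair the libraries, it fell by 0.57 ± 0.14 (adjusted p = 0.0293). Leaving out in addition the low replicate 2 of Cr(VI)-grown, DMSO-treated cells at passage 20, it fell by 0.47 (adjusted p = 0.0129). Without a block, 1 of the 16 fits that each left out 1 library called Cpt1a, with edgeR adjusted p-values of 0.044 to 0.764, and the difference was -0.47 without the low library. In the contrasts that do not use that group it was -0.54 at passage 25 and -0.55 under B[a]P.

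Acadm followed with -0.31 ± 0.18 (adjusted p = 0.71, and 0.0576 with the block). It too was lower in 8 of 8 pairs (4.0% of genes), and without overlap in 3 of 4 matched groups. Ehhadh had -0.34 ± 0.21 (adjusted p = 0.732), or -0.23 without the low library at passage 20, and was lower in 6 of 8 pairs. The shares of all genes with 3 of 4 groups or 6 of 8 pairs were not counted. The differences of Ppargc1b (-0.07), Cpt2 (0.01), Acadl (-0.11), Hadha (-0.04) and Acaa2 (0.05) lay within their standard errors of 0.20 to 0.51. The median over the 8 genes tested was -0.09, against 0.02 over all genes.

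No other pathway gene passed without the block, and 6 of the 66 had an unadjusted p under 0.05. With the block 4 were higher and 4 lower in Cr(VI)-grown cells, that is 8 of 66 against 10.6% of all genes. Those higher were Cpt1b (0.84 ± 0.19), Acot8 (0.51 ± 0.15), Cpt1c (0.47 ± 0.08) and Creb3l3. Creb3l3 rests on few reads, with 0.0609 to 0.515 CPM in Cr(VI)-grown cells and 0 to 0.158 CPM in control-grown cells. The synthetase Acsl3 (-0.55 ± 0.13) and the peroxisomal transporter Abcd3 (-0.45 ± 0.09) were among those lower, with edgeR adjusted p-values of 0.0101 to 0.0453 over the 8. With the block at passage 25 only, 3 were higher and 3 lower, and Acot8 was not among them (adjusted p = 0.0602, edgeR). Cpt1a, the liver isoform, and Cpt1b and Cpt1c, the muscle and brain isoforms, thus had opposite signs. In level Cpt1b averaged 1.08 CPM per kb and Cpt1c 21.3 CPM per kb, against 17.0 CPM per kb for Cpt1a.

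**Figure D3:**
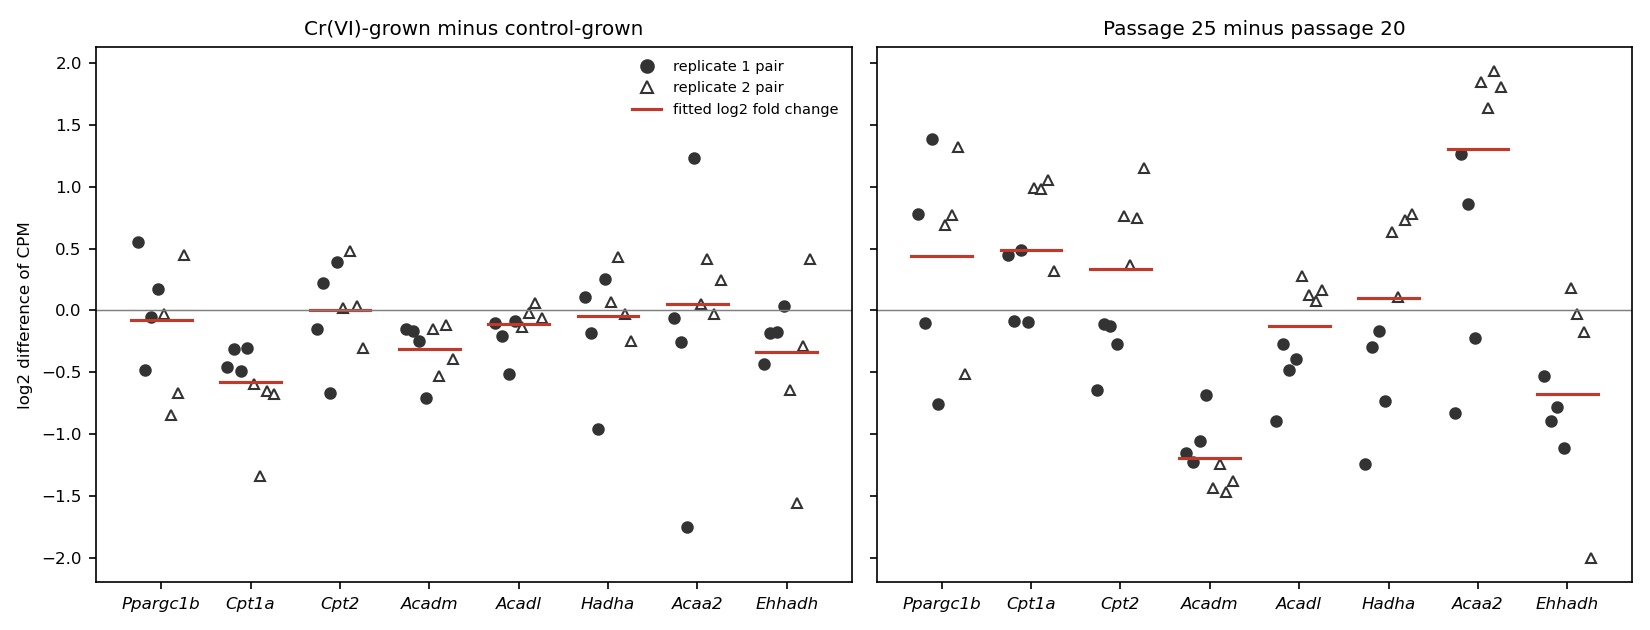
Log2 difference of CPM in each of 8 pairs of libraries with the same treatment and replicate number, for Cr(VI)-grown minus control-grown cells (left) and passage 25 minus passage 20 (right), with the fitted log2 fold change as a red line. Cpt1a is below 0 in 8 of 8 pairs on the left and Acadm in 8 of 8 pairs on both sides, while Acaa2, Hadha and Cpt2 on the right separate by replicate number.

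Recovered cells lay between the other growth histories of passage 25 in their group means of Cpt1a. After B[a]P they had 80.6 and 91.8 CPM, against 68.1 and 75.5 CPM in Cr(VI)-grown and 95.9 and 118.3 CPM in control-grown cells of passage 25. Under DMSO they had 66.6 and 87.2 CPM, against 64.5 and 62.8 CPM in Cr(VI)-grown and 79.6 and 100 CPM in control-grown cells. Under DMSO the recovered and control-grown cells overlapped, and in the other comparisons the duplicates did not.

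Against Cr(VI)-grown cells, recovered cells had a Cpt1a difference of 0.27 ± 0.24. They were higher without overlap in 2 of 2 matched groups (2.29% of genes), and therefore in 4 of 4 pairs (13.2% of genes). Against control-grown cells the difference was -0.27 ± 0.24, lower in 4 of 4 pairs, as were 6.12% of genes (4 against 4 libraries each, adjusted p = 1.0 for both, edgeR). Against Cr(VI)-grown cells the 8 genes ranged over -0.14 to 0.47, and against control-grown cells over -0.27 to 0.48. No gene of the table passed in either comparison without a block (0.0% each). Unadjusted, 477 and 326 genes had a p under 0.05, and DESeq2 called 2 against Cr(VI)-grown and 13 against control-grown cells. With the block in each passage edgeR called 0 against Cr(VI)-grown and 1 against control-grown cells. Both comparisons use the same recovered libraries.

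B[a]P went with a lower level of Ppargc1b in every growth history. In recovered cells Ppargc1b (GeneID 170826, chr18:61291445-61400756) had 3.35 and 1.15 CPM after B[a]P and 5.10 and 3.36 CPM after DMSO. In Cr(VI)-grown cells of passage 25 it had 1.42 and 0.774 CPM after B[a]P and 4.24 and 4.75 CPM after DMSO. In control-grown cells of passage 25 it had 1.47 and 1.23 CPM after B[a]P and 3.77 and 3.49 CPM after DMSO. Each B[a]P library was below each DMSO library of its group, though in recovered cells the margin was small.

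At passage 20, Cr(VI)-grown cells had 0.824 and 0.48 CPM of Ppargc1b after B[a]P and 4.56 and 2.78 CPM after DMSO. Control-grown cells had 0.563 and 0.49 CPM after B[a]P and 6.35 and 4.99 CPM after DMSO, which is 21 and 19 counts against 161 and 177.

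Because Ppargc1b was chosen for this response, its size is given without a test. The log2 fold change was -0.90 ± 0.50 in recovered cells, -2.25 ± 0.37 in Cr(VI)-grown and -2.42 ± 0.37 in control-grown cells. In control-grown cells it was -1.43 ± 0.51 at passage 25 and -3.42 ± 0.55 at passage 20. In Cr(VI)-grown cells it was -2.02 ± 0.51 at passage 25 and -2.49 ± 0.53 at passage 20. The groups did not overlap in 5 of 5 matched pairs of groups, against 1.83% of all genes in this direction. It follows that Ppargc1b was also lower in 10 of 10 pairs of libraries (6.26% of genes). The value of recovered cells turned on 1 library: it was -1.87 without replicate 1 and -0.34 without replicate 2 of the B[a]P-treated cells.

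The gene spans 109.3 kb. Genes that span 80 to 140 kb had a median log2 fold change of -0.36 in control-grown cells (1183 genes, quartiles -0.61 and -0.13). Those under 20 kb had one of 0.12 (7015 genes). In the 80 to 140 kb class only 1 gene, Ppargc1b itself (0.0845%), lay at or below the value of Ppargc1b. Ppargc1b was selected on this fall, so its rank follows in part from the choice and is no test. Any part of span in its fall was not tested. The other regulators of the list did not share one direction. The related coactivator Ppargc1a had -1.14 ± 0.68 in control-grown cells, and Pprc1, the third of the family, -0.46 ± 0.20. Neither passed without a block for the replicate number in each passage. With that block they had -1.01 ± 0.29 and -0.46 ± 0.14 (adjusted p = 0.0315 and 0.041, edgeR), and with the block at passage 25 only the adjusted p was 0.0576 and 0.0724. Both were named as relatives of Ppargc1b after their values were seen.

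The enzyme genes did not follow the coactivator. Ehhadh was higher after B[a]P in 10 of 10 pairs, as were 6.04% of the genes. It had 1.63 and 1.32 CPM after B[a]P and 0.845 and 0.987 CPM after DMSO in recovered cells. In control-grown cells of passage 25 it had 1.29 and 1.78 CPM after B[a]P and 0.712 and 0.457 CPM after DMSO. In Cr(VI)-grown cells of passage 25 it had 1.14 and 1.46 CPM after B[a]P and 0.73 and 0.609 CPM after DMSO. The duplicates did not overlap in 4 of 5 matched groups, the exception being Cr(VI)-grown cells of passage 20. The share of all genes with this separation was not counted. Its log2 fold change was 0.69 ± 0.42 in recovered, 0.75 ± 0.30 in Cr(VI)-grown and 0.84 ± 0.29 in control-grown cells. The value of Cr(VI)-grown cells was 0.53 without replicate 2 of the DMSO-treated cells of passage 20.

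Cpt2 was higher after B[a]P in 9 of 10 pairs, with 0.23 ± 0.58, 0.30 ± 0.41 and 0.57 ± 0.41 in recovered, Cr(VI)-grown and control-grown cells. Its clearest separation was in control-grown cells of passage 20, with 43.3 and 39.5 CPM after B[a]P and 26.1 and 25.4 CPM after DMSO. Acadm was higher in 9 of 10 pairs, with differences of 0.13 to 0.43. The share of all genes higher in 9 of 10 pairs was not counted, while 6.04% were higher in 10 of 10. Cpt1a ranged over -0.08 to 0.16, Acadl over -0.02 to 0.02, Hadha over -0.01 to 0.12 and Acaa2 over -0.15 to 0.36 in the 3 growth histories, all within their standard errors. For Cpt1a the mean over passages joins opposite signs in control-grown cells, with 0.27 and 0.24 in the pairs of passage 25 and -0.31 and -0.50 in those of passage 20. For Acaa2 the error reached 1.03, because the duplicates of passage 25 differed so widely. All these errors are of the fit without a block, so they hold the split by replicate number. In pairs of equal number at passage 25, Acaa2 differed by 0.15 and 0.072 in recovered cells. The pairs gave -1.68 and 0.00098 in Cr(VI)-grown cells and 1.30 and 0.27 in control-grown cells.

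**Figure D4:**
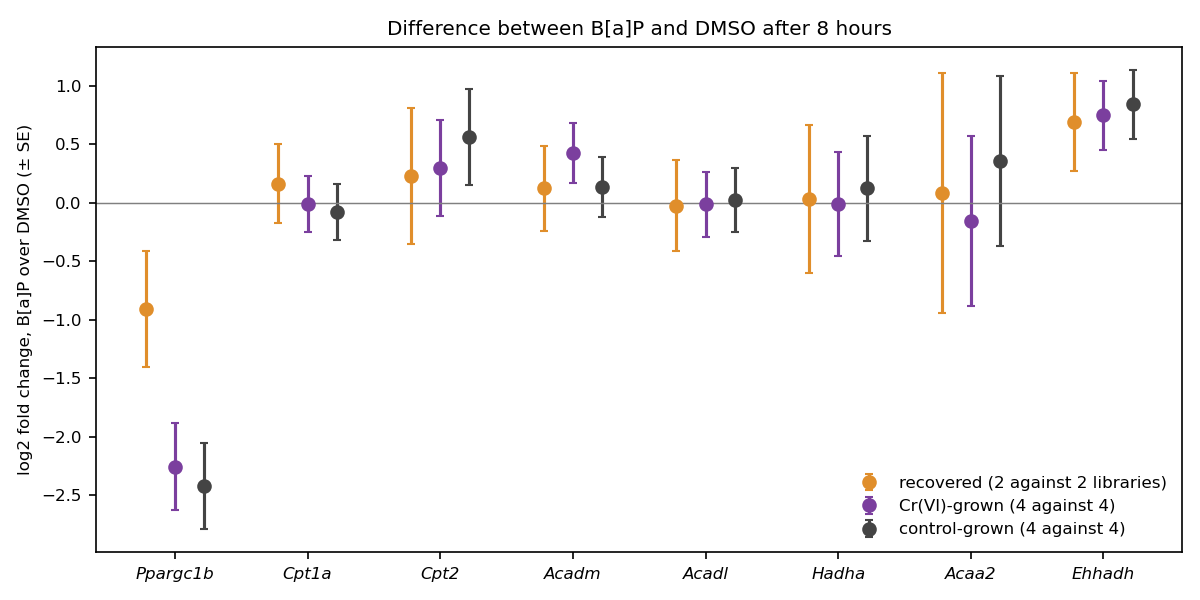
Fitted log2 fold change, B[a]P over DMSO, with its standard error for the 8 genes that passed the filter, in recovered (orange), Cr(VI)-grown (purple) and control-grown cells (black). Ppargc1b lies at -0.90, -2.25 and -2.42, Ehhadh at 0.69 to 0.84, and the other genes between -0.15 and 0.57.

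Of the 66 other pathway genes, none passed the threshold after B[a]P when cells were control-grown, where 2.2% of all genes did. None passed in Cr(VI)-grown cells (0.941% of all genes) or in recovered cells (0.0558%). Unadjusted, 10, 8 and 4 of them had a p under 0.05 in control-grown, Cr(VI)-grown and recovered cells. DESeq2 called 5, 4 and 0. With the block, 2 of 66 were called in recovered cells (1.5% of all genes), 12 in Cr(VI)-grown cells (10 higher, 2 lower, 11.3% of all genes) and 18 in control-grown cells (13 higher, 5 lower, 16.7% of all genes). In control-grown cells these were 4 of 14 regulators lower and 3 higher, 1 of 6 uptake genes lower, and 2 of 8 shuttle, 2 of 12 mitochondrial, 3 of 13 peroxisomal and 2 of 10 other target genes among those higher. With the block at passage 25 only, 2, 11 and 15 were called in recovered, Cr(VI)-grown and control-grown cells. Without a block the median log2 fold change of the 66 was 0.11 in recovered cells (0.03 over all genes), 0.03 in Cr(VI)-grown cells (0.02) and 0.29 in control-grown cells (-0.02).

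Ppard and Lpin1 were called with the block in each growth history. Lpin1 encodes a phosphatidate phosphatase that also serves as a coactivator of PPARA. It had 26.7 and 37.2 CPM after B[a]P and 8.21 and 13.3 CPM after DMSO in recovered cells. Its block estimate was 1.60 ± 0.27 in recovered, 1.04 ± 0.19 in Cr(VI)-grown and 1.01 ± 0.19 in control-grown cells (adjusted p = 0.00833, 0.00312 and 0.00221, edgeR). Ppard, the delta receptor, had 1.07 ± 0.18, 0.92 ± 0.13 and 1.04 ± 0.13 in recovered, Cr(VI)-grown and control-grown cells (adjusted p = 0.00872, 0.000638 and 0.000126, edgeR). Both lacked a call without the block, where the adjusted p was at least 0.146.

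Among other calls with the block, the synthetase Acsl1 was lower after B[a]P. It had 18.9 and 21.3 CPM after B[a]P and 32.4 and 63.5 CPM after DMSO in Cr(VI)-grown cells of passage 20, and 24.9 and 29.8 CPM against 75.6 and 77.8 CPM in control-grown cells. Its block estimate was -0.94 ± 0.21 in Cr(VI)-grown and -1.33 ± 0.21 in control-grown cells. The nuclear receptor coactivators Ncoa2 (-1.76 ± 0.35) and Ncoa1 (-1.30 ± 0.26) were lower in control-grown cells. Mlycd, which removes the malonyl-CoA that inhibits the carnitine transferase, was higher there (1.24 ± 0.24). Higher in Cr(VI)-grown cells were the peroxisome proliferation gene Pex11a (1.31 ± 0.31), the kinase gene Pdk4 (1.13 ± 0.25) and Cpt1b (0.99 ± 0.27). The edgeR adjusted p-values of these calls with the block were 0.000923 to 0.0282.

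Whether the response to B[a]P differed with growth in Cr(VI) was asked by the interaction over both passages. Over all genes, none passed in edgeR (0.0%) or DESeq2, and 60 genes had an unadjusted p under 0.05. For the members, given without a test, the response in Cr(VI)-grown cells minus that in control-grown cells was 0.17 ± 0.50 for Ppargc1b and ranged from -0.51 for Acaa2 to 0.29 for Acadm.

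The genes whose levels over the 20 libraries were most like those of Ppargc1b were Sh3rf1 (Pearson r = 0.957), Jade2 (0.954) and Cdk6 (0.951). Those most like Cpt1a were Myo6 (0.938), 1700018L02Rik (0.926) and Pik3ap1 (0.926). These libraries share the B[a]P and growth groups, so a like response of these genes follows from the choice. Ppara was not used for this because it did not pass the filter. Ppargc1b itself had r of 0.22 with Cpt1a, -0.49 with Cpt2 and -0.52 with Ehhadh over the same libraries.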

How the data were processed

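RNA of 20 Hepa-1 libraries was counted per gene by the authors, and the deposited values are raw counts in 1 table. Per the submitters' processing notes, bcl2fastq, CASAVA 1.8, TopHat, DESeq and the mm10 build were used, with no role given. Library totals were 20976045 to 37930720 counts. Gene IDs were matched to symbols for 23275 of 23373 rows, and 98 had no match.

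The deposited counts were fitted with edgeR 4.0.16 in R 4.3.3 (limma 3.58.1): filterByExpr, which left 14343 genes, TMM scaling, and the quasi-likelihood test on all 20 libraries with 1 mean per group. P-values were two-sided with Benjamini-Hochberg adjustment over every gene in the fit, and 0.05 was the threshold. CPM used the scaled library sizes, CPM per kb the union of exons, and correlations log2(CPM + 0.5). The fit was tested on simulated data with less spread between libraries than these counts had in the main fit (common dispersion 0.228). The simulated data also had no split by replicate number, so they do not show what the fit could find in these counts.

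The 9 genes and all lists were chosen with earlier results of these data known. Of other pathway genes, the text names at most 6 called per comparison, by size of change, and the highest 2 in level per role, apart from those said to be chosen later. Some genes that this rule covers are not reported here. Alternatives were DESeq2 1.42.0, DESeq2 size factors, no filter, each library left out, the replicate 2 libraries of passage 25 not used, and a block for the replicate number in each passage. A block at passage 25 only, with and without replicate 2 of the DMSO-treated Cr(VI)-grown cells of passage 20, was added after seeing the data. Deviations from group means of same-numbered libraries correlated at 0.881 to 0.952 over 15 pairs of groups at passage 25, so the numbers pair libraries there, and at 0.0554 to 0.724 over 6 at passage 20, where they do not. Passage 25 is as labelled, while some titles give a later passage.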

Additional observations from a re-analysis of the deposited data

How the results depend on the processing

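Counts of genes called are given for B[a]P in control-grown, Cr(VI)-grown and recovered cells, then for Cr(VI)-grown against control-grown, recovered against control-grown, recovered against Cr(VI)-grown, and passage. The values as reported were 316, 135, 8, 0, 0, 0 and 2779. With the replicate block within each passage they were 2399, 1620, 215, 1514, 1, 0 and 9082. With the block at passage 25 only they were 2199, 1501, 193, 926, 1, 0 and 8803, and without replicate 2 of the DMSO-treated Cr(VI)-grown cells of passage 20 as well 3390, 2276, 605, 1022, 80, 2 and 10079. DESeq2 gave 773, 473, 104, 163, 13, 2 and 4186, no filter gave 178, 70, 8, 0, 0, 0 and 2447, and the replicate 2 libraries of passage 25 not used gave 1052, 772, 4, 0, 81, 169 and 3813. The interaction had 0 calls in each of these. Leaving out 1 library each gave 68 to 150, 27 to 90, 0 to 5 and 0 to 90 for the first 4, and 1593 to 4527 for passage. The cause of these changes was not tested.

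Some small differences changed sign. For passage, Cpt2 was -0.25 and Hadha -0.57 without the replicate 2 libraries of passage 25, and Hadha was -0.016 with either block. For Cr(VI) growth, Cpt2 was -0.025 with the passage 25 block without the 1 library and -0.0062 with no filter, and Acaa2 was -0.0057 with the replicate block, -0.102 with the passage 25 block without the 1 library, and -0.094 without the replicate 2 libraries. Without those libraries Hadha was -0.074 for recovered against control-grown cells, Cpt2 -0.034 for recovered against Cr(VI)-grown cells, and Cpt1a -0.044 in the interaction, where the passage 25 block without the 1 library gave -0.17.

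With 1 library left out, ranges that crossed 0 were -0.17 to 0.25 for Hadha by passage. For Cr(VI) growth they were -0.21 to 0.0084 for Ppargc1b, -0.22 to 0.21 for Cpt2, -0.29 to 0.0019 for Acadl, -0.32 to 0.16 for Hadha and -0.44 to 0.39 for Acaa2. For recovered against control-grown cells they were -0.0014 to 0.77 for Ppargc1b, -0.39 to 0.39 for Cpt2, -0.15 to 0.28 for Acadm, -0.091 to 0.26 for Acadl, -0.34 to 0.50 for Hadha and -1.06 to 0.59 for Acaa2. For recovered against Cr(VI)-grown cells they were -0.0067 to 0.76 for Ppargc1b, -0.26 to 0.54 for Cpt2, -0.024 to 0.56 for Acadl, -0.13 to 0.84 for Hadha and -1.101 to 0.85 for Acaa2. In the interaction they were -0.16 to 0.39 for Cpt1a, -0.71 to 0.0028 for Cpt2, -0.39 to 0.20 for Acadl, -0.68 to 0.17 for Hadha, -0.32 to 0.24 for Ehhadh and -0.092 to 0.37 for Ppargc1b. For B[a]P they were, in recovered cells, -0.018 to 0.37 for Cpt1a, -0.46 to 0.94 for Cpt2, -0.34 to 0.59 for Acadm, -0.40 to 0.28 for Acadl, -0.82 to 0.71 for Hadha and -1.79 to 2.02 for Acaa2. In Cr(VI)-grown cells they were -0.24 to 0.32 for Cpt1a, -0.15 to 0.57 for Cpt2, -0.36 to 0.22 for Acadl, -0.55 to 0.30 for Hadha and -1.13 to 0.25 for Acaa2, and in control-grown cells -0.15 to 0.012 for Cpt1a, -0.013 to 0.34 for Acadm, -0.14 to 0.16 for Acadl and -0.14 to 0.54 for Hadha. The passage call of Ehhadh was lost with no filter (adjusted p = 0.081, edgeR) and without the replicate 2 libraries (0.087).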
